A study of Mus musculus with 4 samples.

Results

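The genes of glycolysis and glucose use were examined by RNA-seq in freshly isolated satellite cells, which are the stem cells of skeletal muscle and express Pax7. The 34 genes were chosen by name: the symbols of the glucose transporters, the glycolytic enzymes, the PFKFB regulators, the lactate enzymes and transporters, and the pyruvate dehydrogenase subunits and kinases. They matched 35 of the 55487 rows of the deposited tables, because Aldoa names 2 rows. The second Aldoa row (GRCm38 chromosome 7, 126800790 to 126809108) lay between 0.287 and 1.60 TPM. It is kept apart in the Aldoa values below but is included in the Aldoa share and the aldolase sums.

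Libraries came from 2 Control and 2 Rbfox2 cKO samples, numbered 1 and 2 in each group. The cKO mice carried Rbfox2 flox alleles and Pax7CreERT2, a tamoxifen-inducible Cre expressed from the satellite cell gene Pax7. They also carried the Rosa26 EYFP reporter and had received tamoxifen. The Control animals are described only as control, so their alleles and treatment are not stated, and neither are age, sex, the sorting gate or any pooling of animals. The study's purpose was to find how loss of Rbfox2, an RNA-binding regulator of splicing, alters gene expression and splicing in these cells.

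Glycolysis splits glucose into pyruvate in the cytosol and yields ATP without oxygen. Most steps have several isozymes that differ between tissues: mature muscle fibres use Slc2a4, Pfkm, Pgam2 and Eno3, while proliferating and many other cells use Slc2a1, Pfkp or Pfkl, Pgam1 and Eno1. Pyruvate is then reduced to lactate or enters mitochondria through pyruvate dehydrogenase, which its kinases switch off. Quiescent satellite cells are known for low metabolic activity and for turning to glycolysis on activation.

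Estimated counts per library were between 68884091 and 101997422. Rbfox2 stood at 49.5 and 27.4 TPM in Control 1 and 2 and at 20.9 and 12.2 TPM in cKO 1 and 2. It fell by the quasi-likelihood test of edgeR on counts (log2 fold change -1.76, SE 0.35, adjusted p = 0.000252, n = 2 per group), a call that did not survive the removal of any 1 library. Library cKO 1 was the smallest, and its median TPM of all genes was 0.771, where the other libraries had 0.312 to 0.437. Of all TPM the 35 rows held 0.437% and 0.435% in the Control pair and 0.439% and 0.420% in the cKO pair, so their summed share was nearly level across the libraries.

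The highest levels were those of 3 genes among the glycolytic enzymes on the TPM scale, which is per transcript length and so allows genes to be compared. Ldha, which reduces pyruvate to lactate, stood at 794 and 747 TPM in Control 1 and 2 and at 770.1 and 717 TPM in cKO 1 and 2. Aldoa, the aldolase that splits fructose bisphosphate, stood at 725 and 759 TPM in Control and 814 and 843 TPM in cKO. Pkm, pyruvate kinase, stood at 711 and 770.3 TPM in Control and 777 and 704 TPM in cKO. These 3 ranked 171, 165 and 177 by mean TPM among all genes of the tables, and their order relative to each other differed between libraries. Slc16a1, a lactate and pyruvate transporter, was next at 324 and 317 TPM in Control and 286 and 292 TPM in cKO.

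**Figure D1:**
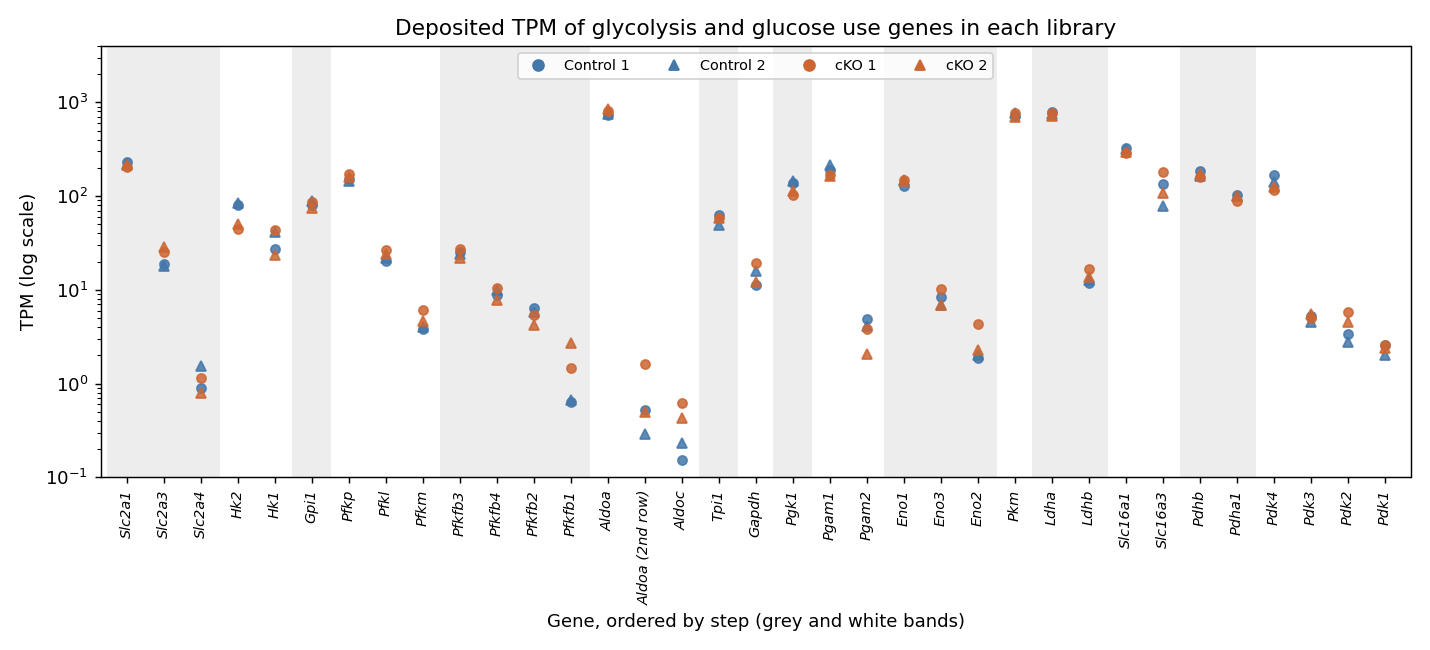
TPM (log scale, vertical axis) of each gene in Control 1 and 2 (blue) and cKO 1 and 2 (orange), ordered by step along the horizontal axis with alternating bands for steps. Aldoa, Pkm and Ldha lie near the top in all 4 libraries, and the fibre isozymes Slc2a4, Pgam2 and Pfkm lie below 7 TPM.

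Among the glucose transporters Slc2a1, the widely expressed GLUT1, had the highest transcript level. Its level was 229 and 218 TPM in Control 1 and 2 and 205 and 215 TPM in cKO 1 and 2. Slc2a3, the high-affinity GLUT3 transporter, was lower, at 18.7 and 17.8 TPM in Control and 25.0 and 28.4 TPM in cKO. Slc2a4, the insulin-responsive GLUT4 of fibres and fat, lay between 0.802 and 1.53 TPM, so Slc2a1 held 92.1% and 91.9% of the summed TPM of the 3 transporters in Control and 88.7% and 88.0% in cKO. Both cKO libraries lay below both Control libraries for that share and above them for the share of Slc2a3, which was 7.50% ± 0.014 in Control and 11.2% ± 0.61 in cKO (SD, n = 2 each).

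Hexokinases trap glucose in the cell by phosphorylation. Hk2, the insulin-responsive form of muscle and fat, stood at 79.6 and 85.1 TPM in Control 1 and 2 and at 44.5 and 49.98 TPM in cKO 1 and 2. Hk1, the broadly expressed form, stood at 27.0 and 41.4 TPM in Control and 43.4 and 23.7 TPM in cKO, so that its groups overlapped where those of Hk2 did not. The share of Hk2 was 74.7% and 67.3% in Control and 50.6% and 67.9% in cKO, and only cKO 1 had near-equal levels of both. Gpi1, the isomerase of the next step, stood at 79.9 and 88.2 TPM in Control and 86.7 and 73.8 TPM in cKO.

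Transcripts for phosphofructokinase, the committed step of glycolysis, were mainly of the platelet-type subunit. Pfkp stood at 153 and 147 TPM in Control and 172 and 160.4 TPM in cKO. Pfkl, the liver-type subunit, stood at 20.1 and 21.9 TPM in Control and 26.5 and 24.0 TPM in cKO. The muscle-type subunit Pfkm lay between 3.78 and 6.03 TPM, which left Pfkp with 85.7% ± 1.07 of the step in Control and 84.5% ± 0.49 in cKO (SD, n = 2 each). Each of the 3 subunits was higher in both cKO libraries than in either Control library in TPM (32% of all genes). CPM are the counts scaled to library size and to the TMM factor, the scaling factor that edgeR gives each library. On that scale this held for Pfkm, while the groups of Pfkp and Pfkl overlapped.

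The PFKFB enzymes make and remove fructose 2,6-bisphosphate, the activator of phosphofructokinase. Pfkfb3, the form with the strongest kinase activity, led them with 25.3 and 24.3 TPM in Control 1 and 2 and 27.5 and 21.6 TPM in cKO 1 and 2, or 60.7% ± 1.23 and 60.5% ± 1.34 of the family (SD, n = 2 each). Pfkfb4 lay between 7.74 and 10.5 TPM and Pfkfb2 between 4.21 and 6.46 TPM. Pfkfb1, the liver and muscle form, was low, between 0.628 and 2.73 TPM.

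Aldoa held 99.97% of the aldolase TPM in Control and 99.94% in cKO, with Aldoc, the brain form, between 0.151 and 0.613 TPM. Tpi1, which interconverts the 2 triose phosphates, stood at 63.1 and 49.2 TPM in Control and 57.7 and 58.2 TPM in cKO. The Tpi1 groups overlapped. The Aldoa groups did not overlap in TPM, at 742 ± 23.6 in Control and 829 ± 20.1 in cKO (SD, n = 2 each), and the log2 fold change of 0.16 did not pass in limma (adjusted p = 0.513). In CPM the Aldoa groups overlapped, with cKO 1 the lowest library at 522 and cKO 2 the highest at 782. These CPM values include TMM factors of 1.27 for cKO 1 and 0.876 for cKO 2. The transcript length implied for Aldoa, explained with the PFKFB genes below, lay between 1446 and 1460 bases in all libraries. The overlap thus holds for CPM with TMM factors, and the Aldoa groups were not compared on library totals alone.

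Gapdh, the dehydrogenase that oxidises glyceraldehyde 3-phosphate, is usually among the most abundant transcripts of a cell. Its row (GRCm38 chromosome 6, 125161715 to 125166467, minus strand) held only 11.2 and 15.7 TPM in Control 1 and 2 and 19.1 and 12.2 TPM in cKO 1 and 2. The sequence of the gene recurs in the genome, so the 30 annotated genes counted here as copies were summed. They are genes that hold at least 10% of the 50-base words of Gapdh transcripts and are pseudogenes or have at least 50% of their own words in Gapdh. Their summed level was 770.4 and 759 TPM in Control and 761 and 696 TPM in cKO, far above the Gapdh row and level with Ldha, Aldoa and Pkm. The sum of Gapdh and its copies was 782 and 774 TPM in Control and 780.04 and 708 TPM in cKO.

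The extent of the overlap is visible in the coding sequence. The first stretch below comes from a coding exon of Gapdh (transcript Gapdh-201, 60 bases, minus strand, chr6:125163318-125163377) and occurs letter for letter in 29 of the 30 copies. The second, also coding (chr6:125162977-125163036), occurs unchanged in 24 copies and is set beside the 3 copies with the highest mean TPM, Gm7336 (chr7:51747022-51747081), Gm5559 (chr5:95862039-95862098) and Gm12070 (chr11:26786958-26787017), all on the plus strand. Sequences are from GENCODE M21 transcripts on GRCm38, and a capital letter marks a base that differs from Gapdh.
Gapdh, in 29 copies: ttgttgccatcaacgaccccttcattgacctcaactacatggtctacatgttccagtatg
Gapdh, in 24 copies: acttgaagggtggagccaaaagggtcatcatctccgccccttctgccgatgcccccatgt
Gm7336: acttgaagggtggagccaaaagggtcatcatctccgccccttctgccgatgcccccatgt
Gm5559: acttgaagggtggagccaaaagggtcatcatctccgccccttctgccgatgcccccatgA
Gm12070: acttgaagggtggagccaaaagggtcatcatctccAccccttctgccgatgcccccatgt
These copies differ from Gapdh by 0, 1 and 1 bases in the second stretch, and they stood at a mean of 113, 97.1 and 86.2 TPM, each several times the Gapdh row.

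Of the 50-base words of the coding transcript Gapdh-201 (1272 bases), 90.4% lay in the copies, against 27.2% of those of the retained-intron transcript Gapdh-213 (3289 bases). The mean transcript length implied by count and TPM, explained with the PFKFB genes below, was 3220 and 1447 bases for the Gapdh row in Control 1 and 2 and 2571 and 3229 bases in cKO 1 and 2. In Control 1 and cKO 2 this is close to the retained-intron transcript, and in Control 2 it is close to the coding ones. The level of Gapdh mRNA is therefore uncertain from its row alone, and which transcripts of the gene and copies the reads came from was not tested.

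**Figure D2:**
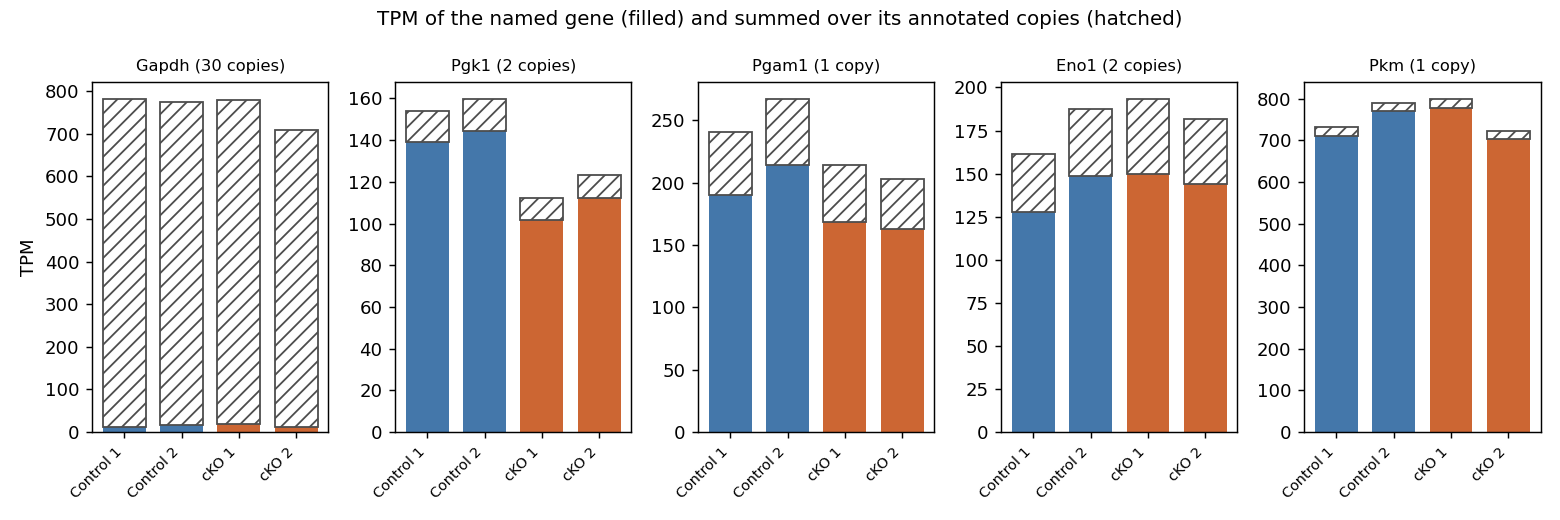
TPM (vertical axis) of Gapdh, Pgk1, Pgam1, Eno1 and Pkm in each library (filled bars; blue Control, orange cKO) with the summed TPM of their annotated copies stacked above (hatched). Copies hold nearly all of the summed TPM for Gapdh and a minor part for the other 4 genes.

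Transcripts of the lower glycolytic steps also came mainly from single leading genes. Pgk1, the first ATP-yielding enzyme, stood at 139 and 144 TPM in Control 1 and 2 and at 102 and 112 TPM in cKO 1 and 2. Pgam1, the mutase of the next step, stood at 190.4 and 214 TPM in Control and 168 and 163 TPM in cKO. In both genes the cKO libraries were the lower pair. Eno1, the ubiquitous enolase, stood at 127 and 149 TPM in Control and 149.6 and 144 TPM in cKO, and its groups overlapped. The fibre forms were minor: Pgam2 lay between 2.05 and 4.83 TPM and Eno3 between 6.83 and 10.3 TPM, while the neuronal Eno2 lay between 1.88 and 4.26 TPM.

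The copies of these genes held less TPM than the gene itself, unlike those of Gapdh. Over all its transcripts Gapdh had 25.1% of its 50-base words in other genes. Pgk1 had 53.9%, and its 2 copies summed to between 10.6 and 15.4 TPM. The 1 copy of Pgam1 held between 39.5 and 52.8 TPM with 36.2% of words shared, and the 2 copies of Eno1 held between 34.1 and 43.7 TPM with 26.0% shared. Pkm shared 25.8% and its 1 copy held between 18.4 and 22.7 TPM. With copies added, the phosphoglycerate kinase and mutase steps kept both cKO libraries below both Control libraries, at 154 and 159.8 against 112 and 123 TPM for the first and 245 and 271 against 218 and 205 TPM for the second.

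Lactate dehydrogenase transcripts were almost wholly of the Ldha type. Ldhb, the heart-type subunit, stood at 11.8 and 12.6 TPM in Control and 16.5 and 13.7 TPM in cKO, which gave Ldha 98.4% ± 0.14 of the pair in Control and 98.0% ± 0.16 in cKO (SD, n = 2 each). Slc16a3, the lactate exporter MCT4, stood at 134 and 79.2 TPM in Control 1 and 2 and at 182 and 107 TPM in cKO 1 and 2. Its 2 groups overlapped, and Slc16a1, the MCT1 transporter, was the more abundant of the pair in every library, with a share between 61.1% and 79.99%.

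Pyruvate dehydrogenase feeds pyruvate to the citric acid cycle. Pdhb, its E1 beta subunit, stood at 184 and 166 TPM in Control 1 and 2 and at 159 and 172 TPM in cKO 1 and 2. Pdha1, the E1 alpha subunit, stood at 104 and 101 TPM in Control and 88.6 and 98.99 TPM in cKO. Among the kinases that inactivate the complex, Pdk4, a FoxO-responsive fasting gene, far exceeded the others at 168 and 141 TPM in Control and 116 and 124 TPM in cKO. Pdk1, Pdk2 and Pdk3 lay between 1.99 and 5.76 TPM. The share of Pdk4 was 93.7% and 93.8% in Control and 89.7% and 90.9% in cKO, with Pdk2 at 1.85% ± 0.029 in Control and 3.89% ± 0.80 in cKO (SD, n = 2 each).

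**Figure D3:**
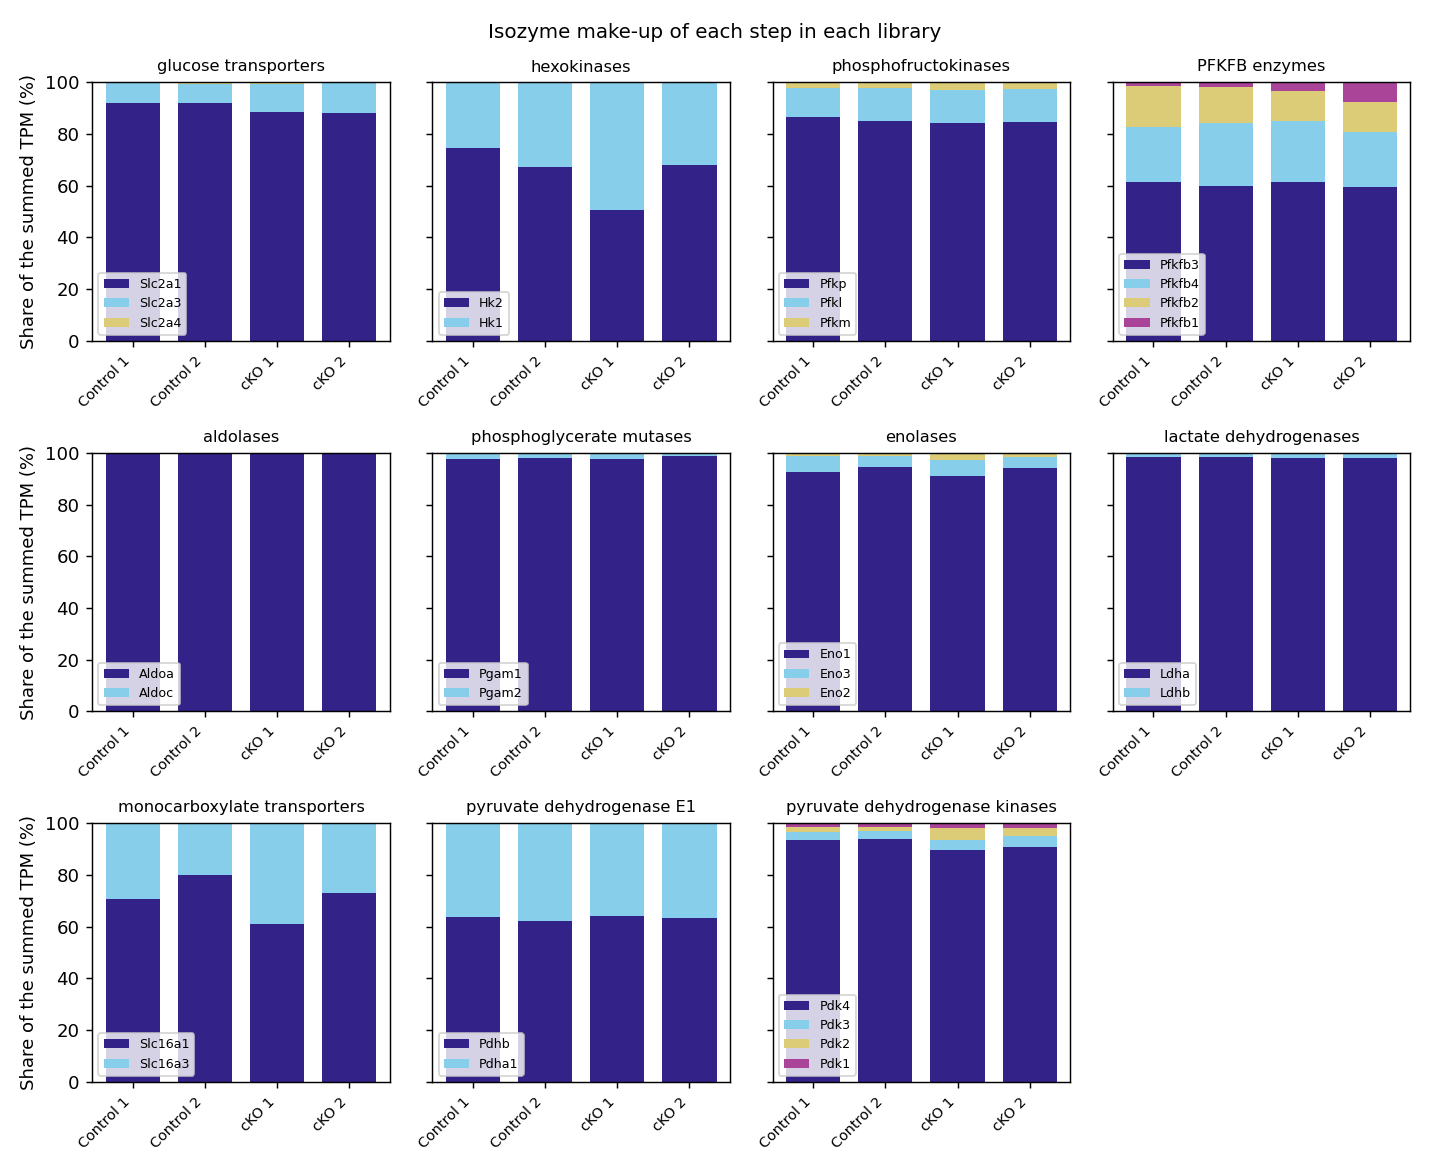
Share of the summed TPM of each step (vertical axis, percent) held by each gene, in the 4 libraries along the horizontal axis of each panel. One gene holds over 80% of the step in every library for 7 of the 11 multi-gene steps. Hk2, Pfkfb3, Slc16a1 and Pdhb hold smaller majorities. Pdhb and Pdha1 are different subunits of E1 rather than isozymes, and from counts the mean share of Pdhb is 48.8%.

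No gene of the set passed the threshold between Rbfox2 cKO and Control. All 35 rows passed the filter on low counts, and 0 had an adjusted p under 0.05 in edgeR, where 0.551% of all 38143 genes tested were called. DESeq2 also called 0 of 35 (0.169% of all genes), and limma on log2(TPM + 1) called 0 of the 33 rows with a mean of at least 1 TPM (0.308% of all genes). At an unadjusted p under 0.05 there were 4 rows in edgeR (4.83% of all genes), 4 in DESeq2 (2.22% of all genes) and 7 in limma (14.9% of all genes). The 4 in edgeR were Hk2, Pfkfb3 and Pfkfb4, which were lower (1.51% of all genes), and Pfkfb1, which was higher. With transcript length as an offset edgeR also called 0 members (0.419% of all genes).

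The log2 fold changes of the set lay to both sides of 0. In edgeR 21 of the 35 were negative, where 45% of all genes were, with a median of -0.091 against 0.063 over all genes tested. The share also moved with level: of all 7129 genes with a mean of at least 10 TPM, 64.4% were negative, with a median of -0.12, and of the 22 members at that level 15 were, with a median of -0.18. In CPM, scaled by library size and TMM factor, the groups did not overlap for 18 rows (31.3% of all genes). The cKO pair was the lower one for 9 of them (13.3% of all genes) and the higher one for 9 (18% of all genes). In TPM the numbers were 9 below (15.7% of all genes) and 9 above (32% of all genes) among the 33 rows with enough TPM.

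**Figure D4:**
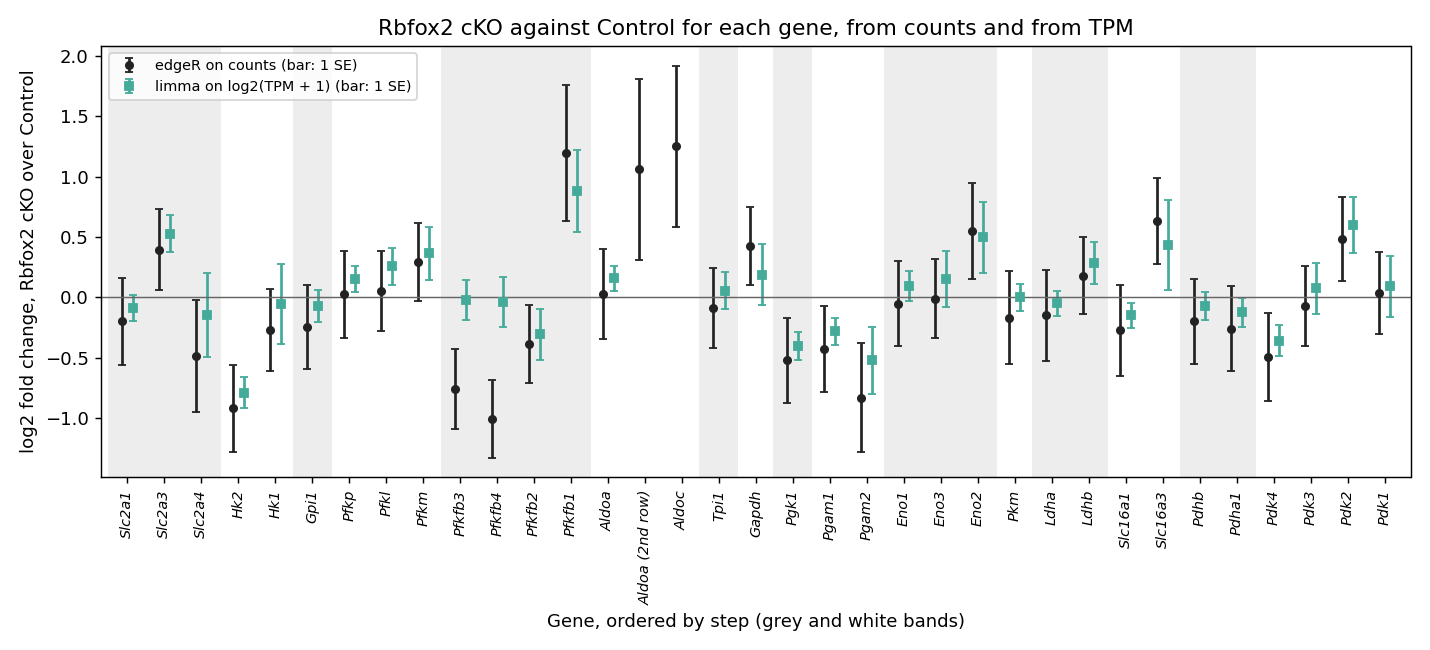
Log2 fold change of cKO over Control (vertical axis) for each gene by edgeR on counts (black) and limma on log2(TPM + 1) (green), with bars of 1 SE and genes ordered by step. Hk2 lies below 0 by both measures, while Pfkfb3 and Pfkfb4 lie below 0 in counts and near 0 in TPM.

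Among the members with a mean of at least 10 TPM, Hk2 had the log2 fold change of largest size both in edgeR on counts and in limma on TPM. Its row (chromosome 6, 82725025 to 82774454, minus strand) held 259 and 275 CPM in the Control pair against 106 (cKO 1) and 177 CPM (cKO 2). The TMM factors in these CPM values were 1.27 for cKO 1 and 0.876 for cKO 2, and in TPM the cKO pair stood at 44.5 and 49.98. Both cKO libraries were the lower pair in CPM and in TPM. The log2 fold change was -0.92 (SE 0.36) with an adjusted p = 0.545 in edgeR, and -0.79 with an adjusted p = 0.0571 in limma. Its implied transcript length lay between 5398 and 5507 bases in all libraries, near the 5513 bases of the coding transcript Hk2-201, and it shared 0% of its 50-base words with other genes.

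The Hk2 value depended on the settings. With library totals only, where Hk2 was the 1 member called (0.739% of all genes), its adjusted p in edgeR was 0.00667 (-0.82). It was 0.0393 without cKO 1 (-0.59) and 0.000742 without cKO 2 (-1.41), and it ran up to 1.00 over the other alternatives. In limma it was 0.0491 with a pseudocount of 0.1, 0.00359 with no filter on low TPM, 0.00316 without Control 1 and 0.0106 without Control 2, settings that called 0.593%, 0.742%, 2.41% and 3.45% of all genes in that order. It did not pass in limma without cKO 1 (0.195), without cKO 2 (0.0738), with the replicate block (0.0874) or with a pseudocount of 5 (0.0679). The direction was the same under each of these settings, and cKO 1 was the lower of the cKO libraries in both units.

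Counts and TPM parted for Pfkfb4 and Pfkfb3. A count grows with transcript length and a TPM is corrected for it, so count divided by TPM gives, after scaling on 2016 genes with a single annotated transcript, the mean length of the transcripts assigned to a gene. Pfkfb4 (chromosome 9, 108991778 to 109032228, plus strand) held 15.1 and 16.8 CPM in the Control pair against 8.60 (cKO 1) and 7.26 CPM (cKO 2). The log2 fold change was -1.01 (SE 0.32, adjusted p = 0.198 in edgeR). In TPM it stood at 8.72 and 9.95 in Control and 10.5 and 7.74 in cKO, with overlapping groups and a log2 fold change of -0.042 in limma. The implied length was 2902 and 2869 bases in Control and 1862 and 1461 bases in cKO.

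Pfkfb3 (chromosome 2, 11471433 to 11554077, minus strand) showed the same split. The Control pair held 53.7 and 49.2 CPM against 29.3 (cKO 1) and 31.5 CPM (cKO 2), while its TPM groups overlapped. On counts the log2 fold change was -0.76 (SE 0.33, adjusted p = 0.779 in edgeR). The implied length was 3559 and 3435 bases in Control and 2413 and 2270 bases in cKO. With the length taken into the edgeR fit as an offset, the log2 fold change was -0.21 for Pfkfb4 and -0.18 for Pfkfb3.

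Pfkfb3 and Pfkfb4 were the 2 of 35 rows whose implied length differed by at least 0.5 on the log2 scale without overlap of the groups, at -0.58 and -0.81, where 1.75% of the 37305 genes with a length in every library did. Annotated transcripts of Pfkfb4 are 3488 and 3316 bases long for the coding forms Pfkfb4-203 and Pfkfb4-201. Shorter ones include the retained-intron form Pfkfb4-206 (1841 bases) and the nonsense-mediated decay forms Pfkfb4-202 and Pfkfb4-207 (1751 and 1712 bases). For Pfkfb3 the annotated coding forms fall into a longer group, from 4634 to 4801 bases, and a shorter one, from 1478 to 2216 bases. The tables are per gene, so which transcripts made up these means was not tested.

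**Figure D5:**
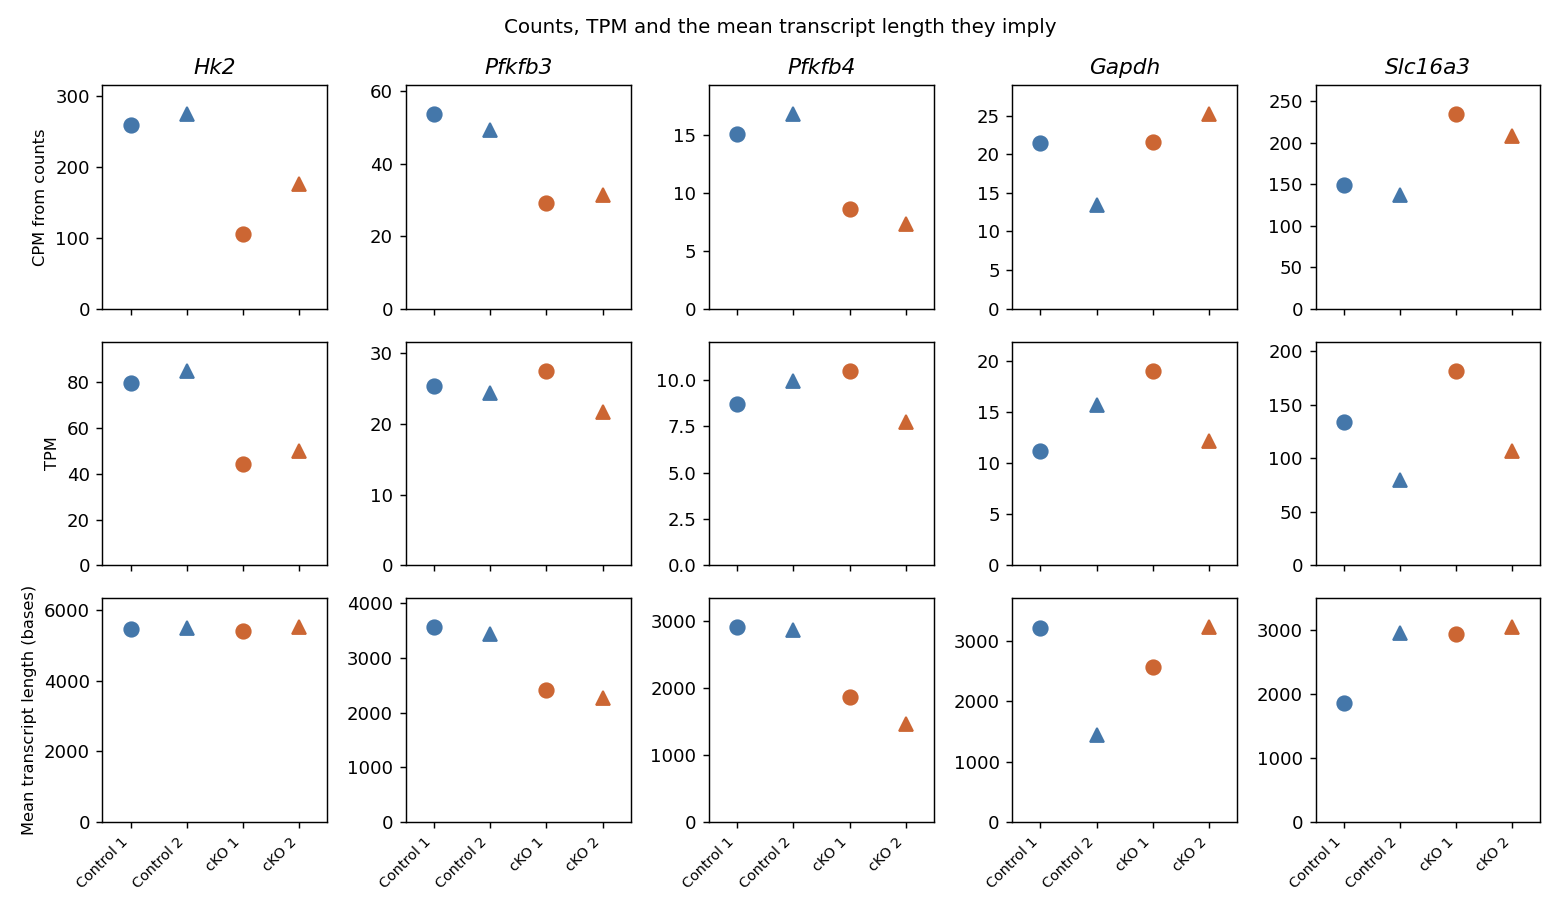
CPM (top row), TPM (middle row) and implied mean transcript length in bases (bottom row) of Hk2, Pfkfb3, Pfkfb4, Gapdh and Slc16a3 in the 4 libraries (blue Control, orange cKO). The length of Hk2 is level, and those of Pfkfb3 and Pfkfb4 are lower in both cKO libraries than in both Control libraries.

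Slc16a3 also had lengths that varied, with 1858 and 2954 bases in the Control pair and 2933 and 3040 bases in the cKO pair, so that Control 1 alone was short. In CPM it stood at 149 and 137 in Control and 235 and 208 in cKO (log2 fold change 0.63, SE 0.36, adjusted p = 1.00 in edgeR), and with the length as an offset the log2 fold change was 0.22. In limma it passed only without Control 1, where Hk2 and Slc16a3 were the 2 members called. Pfkfb1 (log2 fold change 1.19, SE 0.56, adjusted p = 0.917 in edgeR; 0.88 in limma) was higher in both cKO libraries in CPM and TPM and rested on between 36 and 164 counts per library.

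Summed by step, hexokinase TPM was 117 ± 14.1 in Control and 80.8 ± 10.1 in cKO (SD, n = 2 each). Both cKO libraries also lay below both Control libraries for phosphoglycerate kinase, the mutases and the pyruvate dehydrogenase kinases, the last at 165 ± 20.1 in Control and 133 ± 4.93 in cKO. They lay above for phosphofructokinase, at 174 ± 2.76 in Control and 197 ± 11.2 in cKO, and for the aldolases, at 743 ± 23.5 in Control and 830.2 ± 19.2 in cKO. On counts the leading genes of these last 2 steps, Pfkp and Aldoa, had log2 fold changes of 0.024 and 0.027 in edgeR, which turned to -0.029 and -0.024 with DESeq2 size factors. The other 10 of 16 steps overlapped in TPM. An exact permutation test of 2 against 2 samples cannot give a two-sided p below 0.333, so no step could pass that test on its own sum. For comparison, 47.8% of all genes with enough TPM had groups that did not overlap.

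The direction of the set turned with the library left out. Without Control 1 and without Control 2 edgeR called 0 members (0.121% and 0.135% of all genes). Without cKO 1, 12 of 35 log2 fold changes were negative, and without cKO 2, 26 were. Without cKO 1 the median log2 fold change was 0.11 for the set and -0.060 for all genes tested. Without cKO 2 it was -0.48 for the set and 0.15 for all genes tested. Whether other genes of a like level turned in the same way was not tested. Without cKO 1 edgeR called 4 members (2.26% of all genes): Hk2, Pfkfb3 and Pfkfb4 were lower and Slc2a3 was higher. Without cKO 2 it called 12 (5.39% of all genes), namely Slc2a1, Hk2, Pfkfb3, Pfkfb4, Pgk1, Pgam1, Ldha, Slc16a1, Pdha1, Pdhb and Pdk4, all lower, and Slc16a3, higher. Hk2, Pfkfb3 and Pfkfb4 were the members called in both. Such a fit leaves 1 cKO library and assumes that it varies like the Control pair.

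Genes around the pathway were followed in 5 further lists. For comparison with each list, edgeR called 0.551% of all genes, and the median log2 fold change of all genes tested was 0.063. Of 35 other genes of glucose use 0 were called, with a median log2 fold change of -0.037. The most abundant were Bsg, the chaperone of monocarboxylate transporters, at 185 and 254 TPM in Control and 205 and 193 TPM in cKO, Emb, a related chaperone, between 41.4 and 52.2 TPM, and the mitochondrial pyruvate carrier subunit Mpc2, between 33.7 and 40.1 TPM. Of 7 other pyruvate dehydrogenase complex genes 0 were called, 6 were negative and the median was -0.34. Of all genes 45% were negative, and of those with a mean of at least 10 TPM 64.4% were, with a median of -0.12. Of these, Dld, the E3 subunit, stood at 91.2 and 84.0 TPM in Control and 66.1 and 71.9 TPM in cKO. Pdp1, the phosphatase that reactivates the complex, lay between 44.3 and 55.0 TPM and Dlat, the E2 subunit, between 21.1 and 26.3 TPM.

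The pentose phosphate pathway branches from glycolysis at glucose 6-phosphate and yields NADPH. Of its 9 genes 0 were called in edgeR (0.551% of all genes) and 1, Pgd, in limma (0.308% of all genes). Pgd, which makes ribulose 5-phosphate, stood at 56.0 and 68.4 TPM in Control 1 and 2 and at 122 and 148 TPM in cKO 1 and 2. Its log2 fold change was 1.02 (SE 0.35, adjusted p = 0.307) in edgeR and 1.10 (adjusted p = 0.0406) in limma, so it rose by the TPM test only. H6pd, which starts the same route in the endoplasmic reticulum, stood at 83.3 and 80.8 TPM in Control and 135 and 103 TPM in cKO, and Taldo1, transaldolase, lay between 45.8 and 56.0 TPM.

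Of 20 glycogen genes 0 were called, with a median of 0.12. The most abundant were Pgm2, a phosphoglucomutase, between 133 and 147 TPM, Ugp2, which makes UDP-glucose, between 56.6 and 83.9 TPM, and the branching enzyme Gbe1, between 49.8 and 57.9 TPM. Of 25 hypoxia response genes outside the set, 1 rose (0.551% of all genes called) and 24 did not pass, with a median of -0.10. The one that rose was Mxi1, an antagonist of Myc, at 2.46 and 1.80 TPM in Control and 5.25 and 6.48 TPM in cKO (log2 fold change 1.98, adjusted p = 1.19e-05 in edgeR). It did not pass in limma (1.14, adjusted p = 0.103). Its implied length was 1903 and 1982 bases in Control and 3281 and 2801 bases in cKO. With the length as an offset the log2 fold change of Mxi1 was 1.35 (adjusted p = 0.0266 in edgeR).

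Many glycolytic genes are known targets of hypoxia-inducible factors, which bind a core of ACGTG or GCGTG. This motif was searched on both strands of the 250 bases upstream of each annotated start (RefSeq, GRCm38.p6), where 32 of the 34 symbols had an entry. It occurred in 38 of the 51 windows of these genes (74.5%), in 38.6% of all 32851 windows and in 59.2% of the 6503 windows of genes with a mean of at least 10 TPM. Among members at that level 82.8% of 29 windows held it. The median GC content was 59.2% in the member windows and 52.4% in all windows. At a mean of at least 10 TPM it was 62.8% for members and 60.4% for all genes. Windows of neighbouring starts of a gene can overlap and hold the same matches, as in Eno1. The part of GC content and of such overlap in these shares was not tested. The windows of Hk2 (chr6:82774455-82774704, minus strand) and of the upstream start of Ldha (chr7:46845554-46845803, plus strand) are printed because Hk2 had the largest difference among members with a mean of at least 10 TPM and Ldha is the most abundant lactate enzyme. Capitals mark the motif, which reads CACGT or CACGC on the other strand, and a CACGTG holds 2 overlapping matches.
Hk2: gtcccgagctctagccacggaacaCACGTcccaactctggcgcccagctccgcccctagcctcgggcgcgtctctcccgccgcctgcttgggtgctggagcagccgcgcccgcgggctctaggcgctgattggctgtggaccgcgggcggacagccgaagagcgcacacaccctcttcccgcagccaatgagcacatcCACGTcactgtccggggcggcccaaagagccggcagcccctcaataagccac
Ldha: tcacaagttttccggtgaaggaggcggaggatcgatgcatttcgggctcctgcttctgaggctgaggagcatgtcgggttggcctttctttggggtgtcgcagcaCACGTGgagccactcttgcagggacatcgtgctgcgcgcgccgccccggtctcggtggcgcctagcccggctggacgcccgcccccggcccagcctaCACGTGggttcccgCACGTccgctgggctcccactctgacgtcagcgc
The Hk2 window held 2 matches and the printed Ldha window 5, while the window of the other Ldha start (chr7:46846832-46847081) held 1. A match is a description of letters, not of binding.

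The label of satellite cells was checked on 10 markers of these cells, which summed to between 14019 and 15345 TPM. Sdc4 alone held between 10958 and 12058 TPM of this sum. The other 9 were also present in every library, among them Myf5, between 784 and 982 TPM. Pax7 was at 7.90 and 6.995 TPM in the Control pair and 15.9 and 13.5 TPM in the cKO pair (adjusted p = 0.556 in edgeR). Markers of other cells were present, none of them at 0 in a library. The 16 muscle fibre markers summed to 126 and 123 TPM in Control 1 and 2 and 124 and 74.9 TPM in cKO 1 and 2. On counts 12 of the 16 had a negative log2 fold change (45% of all genes), with a median of -0.46. For 10 the cKO pair was the lower one in CPM (13.3% of all genes). None of the 16 passed in edgeR. Of the fibre isozymes, Pgam2 and Slc2a4 were also lowest in cKO 2, at 2.05 and 0.802 TPM. Eno3 was lowest in Control 2, at 6.83 TPM, and Pfkm in Control 1, at 3.78 TPM. The 7 erythroid markers summed to 337 and 764 TPM in Control and 1799.8 and 1471 TPM in cKO. In edgeR 5 of the 7 rose, where 0.551% of all genes were called in either direction. DESeq2 called 0 of the 7 (0.169% of all genes) and limma 0 of the 5 tested there (0.308% of all genes). Endothelial, macrophage and glial sums were also higher in both cKO libraries than in Control. The endothelial sum was 211 and 174 against 150 and 165 TPM. The macrophage sum was 77.7 and 61.1 against 43.6 and 51.1 TPM, and the glial sum 44.1 and 39.0 against 32.0 and 32.1 TPM. In TPM 4 of 9, 4 of 7 and 2 of 6 tested markers were higher in both cKO libraries (32% of all genes). The macrophage marker Itgam was lower in both cKO libraries in CPM and TPM. Fibro-adipogenic, pericyte and neutrophil sums overlapped. In bulk samples fewer cells of a type and less RNA per cell cannot be told apart, and the part of these cells in the values above was not tested.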

How the data were processed

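The values were 2 deposited tables, estimated counts and TPM per gene, for 4 libraries. Per the labels' protocols, 10 ng of RNA went into SMART-Seq cDNA and MGI libraries. Per the submitters' processing notes, HISAT2 2.1.0, StringTie 1.3.6 and GRCm38 were used, with no role stated; the sources used here give neither strand handling nor annotation release. The authors' deposited estimated counts are whole numbers and were used without rounding. The authors' deposited TPM values are corrected for transcript length and keep no depth. Counts can move with the transcripts or copies to which reads are assigned.

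Counts were tested with edgeR 4.0.16 (R 4.3.3; TMM, filterByExpr, robust quasi-likelihood) and Benjamini-Hochberg adjustment over all genes at a threshold of 0.05. For TPM, limma 3.58.1 with trend and robust settings was run on log2(TPM + 1) over genes whose mean TPM was at least 1, and this scale understates changes of low genes. Alternatives were DESeq2 1.42.0, other scalings and filters, pseudocounts, thresholds, a replicate block and each library left out. Length as an offset, copies summed into a gene and crossed pairing were added after seeing the data. On simulated data for this comparison (36083 genes), edgeR recovered 14% of 2-fold and 92% of 4-fold changes.

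Of 55487 identifiers 55394 matched GENCODE M21. All members were named. Values in each library are given for the leading gene of each step and for members with a mean of at least 10 TPM, and for related lists every called gene or else the 3 most abundant. Members and lists were chosen with earlier results of these data known. Nothing in the labels ties the libraries to separate animals. The p-values therefore reflect the spread among these samples alone, and it may be technical. Library codes share a part between same-numbered libraries, and another part differs between the groups, so what the latter marks cannot be told apart from genotype.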

Additional observations from a re-analysis of the deposited data

How the results depend on the processing

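The number of genes called, 210 in all, was 119 with DESeq2 size factors, 28 without a low-count filter, 14 where 2 libraries had to reach a CPM of 5, 92 in DESeq2, 53 in limma, 116 at a threshold of 0.01 and from 51 to 2267 with 1 library left out. Members called were 0, but 1 (Hk2) with library totals only and from 0 to 12 with 1 library left out. Related genes called, 1 in all, were 2 with library totals only, 0 with no filter, 0 with the CPM filter and from 0 to 16 with 1 library left out. On TPM, 53 genes were called, 102 with a pseudocount of 0.1, 24 with a pseudocount of 5, 404 with no filter and from 18 to 608 with 1 library left out. Members called on TPM were 0, but 1 (Hk2) with a pseudocount of 0.1, with no filter and without Control 2, and 2 (Hk2 and Slc16a3) without Control 1. Rbfox2 lost its call with library totals only (-1.47), no filter (-1.81), the CPM filter (-1.52), limma (-1.16) and any library left out (-2.61 to -1.04). Library totals alone moved the median log2 fold change of all genes from 0.063 to 0.25.

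The same-numbered libraries deviated with a correlation of -0.12 over 2 pairs, so the numbers are only shared. With the replicate block 96 genes and 0 members were called, and with the pairing crossed 243 and 0.

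With all libraries kept, the sign of the log2 fold change turned for Gapdh with copies summed (-0.18). With DESeq2 size factors it turned for Pfkl (-0.0067), Pdk1 (-0.025), Pfkp (-0.029) and Aldoa (-0.024), and in DESeq2 for Pdk1 (-0.014), Pfkp (-0.015) and Aldoa (-0.0085). With library totals only it turned for Tpi1 (0.028), Eno3 (0.15), Pdk3 (0.029) and Eno1 (0.078), and in limma for Tpi1 (0.055), Eno3 (0.15), Pdk3 (0.073) and Eno1 (0.092). It turned with the CPM filter for Eno3 (0.12) and Eno1 (0.045), with the length offset for Pdk1 (-0.026), and for Aldoa with the block (-0.0023) and the crossed pairing (-0.0023). With 1 library left out the ranges that crossed 0 were -0.60 to 0.080 for Slc2a1, -0.57 to 0.056 for Hk1, -0.20 to 0.23 for Pfkl, -0.33 to 0.28 for Pfkp, -0.36 to 0.30 for Aldoa, -0.50 to 0.20 for Tpi1, -0.35 to 0.16 for Eno1, -0.17 to 0.12 for Eno3, -0.48 to 0.047 for Pkm, -0.52 to 0.11 for Ldha, -0.057 to 0.34 for Ldhb, -0.72 to 0.055 for Pdha1, -0.63 to 0.10 for Pdhb, -0.18 to 0.19 for Pdk1 and -0.59 to 0.28 for Pdk3. The other 19 rows kept their sign in all alternatives, and the cause of each turn was not tested. Most 2-fold changes would be missed at this size of study.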
